A study of Mus musculus with 48 samples.

Results

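The genes described here are 38 interferon-stimulated genes, found by their symbols among the 18178 rows with a gene symbol in a table of RNA-Seq abundances from striatal progenitor cells. All 38 were found, and all 38 passed the filter on low values. The genes were chosen from a known class with measured values of these data in view, namely the difference between the STHdhQ7 and STHdhQ111 vehicle controls and the differences between each compound and the STHdhQ111 vehicle control. Those differences chose the members and are given below as a description, without a test.

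Interferons are secreted when a cell senses foreign or misplaced nucleic acid. They bind surface receptors, Janus kinases then phosphorylate STAT proteins, and a complex that holds Stat2 and Irf9 binds the interferon-stimulated response element in front of its target genes. The targets encode antiviral effectors, nucleic acid sensors and the transcription factors of the response itself, so the response can feed itself.

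RNA-Seq was performed on 48 samples, 3 in each of 16 conditions, all after 24 hours in serum-free medium. The cells were conditionally immortalized murine striatal progenitor lines, 1 line per genotype: wild-type STHdhQ7 and STHdhQ111, which is homozygous for a knock-in of mutant huntingtin, the gene of Huntington's disease. With 1 line per genotype, the repeat length and the history of the line cannot be told apart. STHdhQ7 cells received vehicle (DMSO), and STHdhQ111 cells received vehicle or 1 of 14 protective compounds. Meclizine and cyproheptadine, loxapine and selisistat, and also DKI (diacylglycerol kinase inhibitor II) were given at 10 µM, and pizotifen at 5 µM. Cysteamine was at 250 µM, while sodium butyrate was at 1 mM and 4-deoxypyridoxine (DOP) at 4 mM. Of the compounds in the nanomolar range fingolimod phosphate was at 250 nM and trichostatin A at 10 nM, nortriptyline was at 1 nM, and haloperidol and nicotinamide were at 0.5 nM. Collection slots were a collection day (1 of 3) and a collection time (1 of 3), as numbered in the labels. The labels do not say whether the 3 samples of a condition came from separate cultures, so p-values measure the spread between samples only.

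The values are normalized abundances on the log2 scale, as deposited, so a difference of 1 is a 2-fold change. They hold no read counts, the depth of each sample is unknown and no counting error can be given. Summed on the linear scale, totals of the samples lay within a factor of 1.11, and replicates of a condition correlated at 0.9964 to 0.9994 across genes. Of the defining markers of neural progenitors, Vim, Nes, Sox2, Pax6 and Hes1 were above the filter on low values, a mean of 1 on the log2 scale. Fabp7 (median 0.67) lay below it, and the neuronal markers Dcx and Rbfox3 lay at the floor of the table in all samples (median -1.86 and -2.13). Replicate 1 of cyproheptadine and of DKI, labelled as collection day 3, stood apart from the other samples of these compounds on the interferon-stimulated genes, and results that rest on them are given with and without them.

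To see how many of these genes hold the sequence, the core of the response element was searched in promoters from 250 bases before to 50 after each gene start (RefSeq, GRCm38.p6). The core was taken as GAAA, any 2 bases, and GAAA again, on either strand. Of the 38 genes, 28 had a promoter in the table, and 12 of these (42.9%) held a core, against 1079 of 27025 genes of the whole table (3.99%). In a separate list of 66 other interferon-induced genes, 24 of the 54 with a promoter held one (44.4%). The 20 bases around 6 of the cores are shown because they show the repeated purine run of these 12 promoters. The other 16, those of Oasl2, Samd9l and Irf7 among them, held none in this window. They are read 5′ to 3′ on the strand with the purine run, with the core in capitals.
Ifih1, chr2:62646209-62646228, minus strand: gaatcGAAACAGAAAccgat
Isg15, chr4:156200882-156200901, minus strand: cgtagGAAAAGGAAAccgaa
Oas1a, chr5:120907531-120907550, minus strand: ctcggGAAATGGAAActgaa
Rsad2, chr12:26456558-26456577, plus strand: tttctGAAAATGAAAgttgg
Stat2, chr10:128270271-128270290, minus strand: gaaagGAAACTGAAAccagg
Ifit1, chr19:34640780-34640799, minus strand: gactgGAAAGTGAAActgaa

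The promoters that hold a core and belong to the genes with the largest difference between the cell lines are Ifit1, Isg15 and Ifit3. Their 180 bases before the RefSeq gene start are shown in the gene's orientation, with the cores in capitals. Ifit1 and Ifit3 each hold 2 cores on the strand opposite to the gene, so that the purine run reads as pyrimidines here. Isg15 holds 3 cores that overlap within a single run.
Ifit1, chr19:34640709-34640888, plus strand: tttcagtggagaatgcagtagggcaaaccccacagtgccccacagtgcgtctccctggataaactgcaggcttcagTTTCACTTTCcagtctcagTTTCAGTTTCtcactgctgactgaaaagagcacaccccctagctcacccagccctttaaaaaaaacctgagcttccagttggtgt
Isg15, chr4:156200819-156200998, minus strand: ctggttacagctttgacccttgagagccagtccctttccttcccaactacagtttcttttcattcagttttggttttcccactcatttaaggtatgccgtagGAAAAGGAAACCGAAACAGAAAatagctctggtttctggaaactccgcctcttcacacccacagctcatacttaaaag
Ifit3, chr19:34583349-34583528, plus strand: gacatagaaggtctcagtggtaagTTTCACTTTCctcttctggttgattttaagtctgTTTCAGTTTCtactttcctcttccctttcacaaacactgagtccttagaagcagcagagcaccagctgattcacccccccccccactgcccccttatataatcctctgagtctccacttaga

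**Figure D1:**
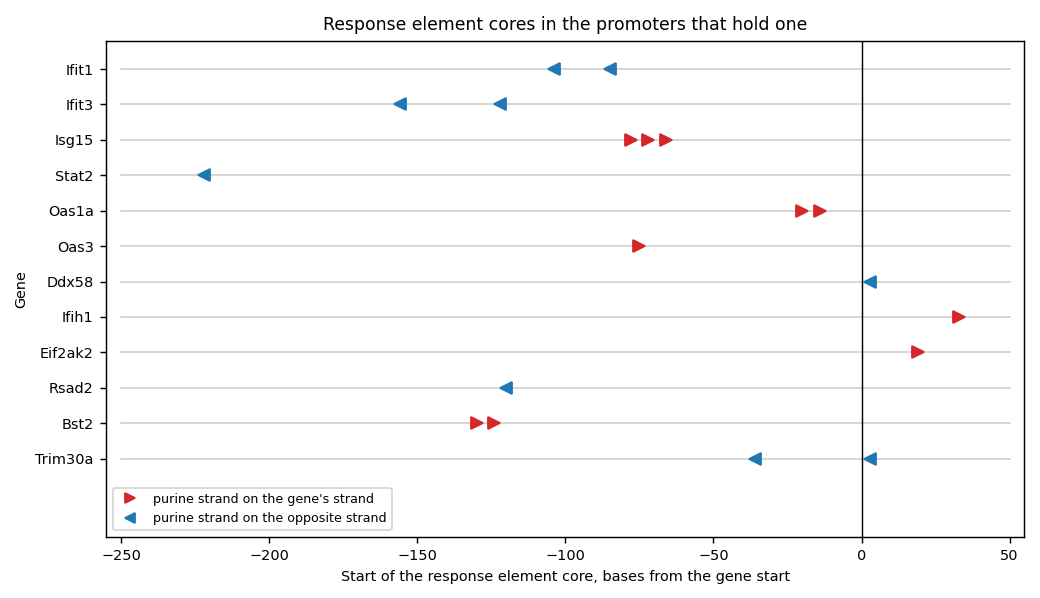
Position of each response element core in the 12 promoters of interferon-stimulated genes that hold one. The x axis gives bases from the gene start, from 250 before to 50 after, and triangles mark where a core begins and point along the strand of its purine run. Most cores lie before the gene start, and those of Ddx58, Ifih1 and Eif2ak2 and 1 of the 2 of Trim30a lie after it.

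Several of the genes are neighbours. On chromosome 19, Ifit2 and Ifit3 lie 7111 bases apart and Ifit1 lies 52139 bases from Ifit3. On chromosome 5, Oas2 and Oas3 lie 3244 bases apart and Oasl1 and Oasl2 11005, and on chromosome 12 Rsad2 and Cmpk2 lie 12751 bases apart. Parp9 and Dtx3l overlap on opposite strands of chromosome 16, where Mx1 and Mx2 lie 72400 bases from each other. The Ifit, Oas, Oasl and Mx genes have close paralogs, and reads that fit more than 1 copy may have been split between them by the authors' quantification, so values of single members of these families are uncertain to that extent.

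The comparison of the vehicle controls asks how the interferon-stimulated genes differ between wild-type and mutant cells. In STHdhQ7 cells all 38 were lower than in STHdhQ111 cells, by a median of -1.54 on the log2 scale, while the median over all 13409 genes tested was 0.00. The differences ran from -2.84 for Ifit1 to -0.36 for Mx1, and 31 of the 38 were beyond -1. In 33 of the 38 genes the 3 STHdhQ7 samples all lay below the 3 STHdhQ111 samples. The same held for 28.3% of all genes tested. This contrast also chose the members, so nothing is read from the share.

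Ifit1 (ENSMUSG00000034459, chromosome 19, 34640871 to 34650009) encodes a protein that binds viral RNA with foreign 5′ ends. Its values were 10.03, 8.99 and 9.35 in STHdhQ7 cells and 12.40, 12.13 and 12.37 in STHdhQ111 cells, a mean of 9.46 ± 0.53 against 12.30 ± 0.15 (SD, n = 3 each), 7.17-fold lower. The groups did not overlap, and Ifit1 had the highest level of the class in STHdhQ111 cells. Its relatives Ifit3 and Ifit2 differed by -2.30 and -1.05.

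Isg15 (ENSMUSG00000035692, chromosome 4, 156199424 to 156200818) encodes a ubiquitin-like modifier that is joined to other proteins. It was at 8.61, 7.39 and 7.76 in STHdhQ7 cells and at 10.37, 10.01 and 10.34 in STHdhQ111 cells. The means, 7.92 ± 0.63 and 10.24 ± 0.20 (SD, n = 3 each), differed by -2.32, with no overlap. Usp18, the protease that removes Isg15 and dampens the receptor, differed by -2.03. The ligases Herc6 and Trim25 differed by -1.06 and -1.45.

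Of the transcription factors, Irf7 (ENSMUSG00000025498, chromosome 7, 141262706 to 141266481), which amplifies the response, differed most. Its values were 8.91, 7.81 and 8.01 in STHdhQ7 cells and 10.44, 10.07 and 10.39 in STHdhQ111 cells. That is a difference of -2.06 without overlap, whereas Irf9, Irf1 and Stat2 differed by -1.0, -0.89 and -0.75. The median over the 4 transcription factors was -0.95, against -2.30 over the 3 IFIT genes. Phrf1 overlaps Irf7 on the other strand.

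When they meet double-stranded RNA, the active enzymes of the OAS family make a second messenger that switches on RNase L. Oasl2 (ENSMUSG00000029561, chromosome 5, 114896936 to 114912234) was at 8.64, 7.34 and 7.53 in STHdhQ7 cells and at 10.38, 10.02 and 10.14 in STHdhQ111 cells, a difference of -2.34. Oas1a and Oasl1 differed by -2.02 and -1.69 without overlap. Oas3 and Oas2 differed by -1.20 and -0.52, and their groups overlapped.

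Among the nucleic acid sensors Ifih1 (ENSMUSG00000026896, chromosome 2, 62595798 to 62646255), which encodes MDA5, a sensor of long double-stranded RNA, differed most. It was at 7.43, 6.45 and 6.70 in STHdhQ7 cells and at 8.79, 8.58 and 8.72 in STHdhQ111 cells, a difference of -1.84. Dhx58 and Ddx58, the relatives LGP2 and RIG-I, differed by -1.74 and -1.56. The kinase Eif2ak2 (PKR), which stops translation when it meets double-stranded RNA, differed by only -0.42 but without overlap, and Zbp1, a sensor of Z-form nucleic acid, by -1.10 with overlap.

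Among the restriction factors Samd9l (ENSMUSG00000047735, chromosome 6, 3372257 to 3399572) was at 8.42, 7.75 and 7.96 in STHdhQ7 cells and at 10.44, 10.32 and 10.37 in STHdhQ111 cells, a difference of -2.33. Rsad2 (viperin), whose product makes a chain-ending nucleotide, differed by -2.18, and its neighbour Cmpk2 by -1.76. Trim30a differed by -1.99 and Mx2 by -1.50. Mx1, with values of 4.44, 3.56 and 3.67 against 4.59, 3.85 and 4.31, and Bst2 (tetherin), which differed by -0.66, overlapped between the lines.

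Parp14 (ENSMUSG00000034422, chromosome 16, 35832874 to 35871544), an ADP-ribosyltransferase, was at 8.01, 7.09 and 7.25 in STHdhQ7 cells and at 9.73, 9.34 and 9.42 in STHdhQ111 cells, a difference of -2.05. Parp9, its partner ligase Dtx3l and Parp12 lay close together, at -1.30, -1.30 and -1.22. Of the remaining genes Rtp4 (ENSMUSG00000033355, chromosome 16, 23520291 to 23614222) differed most, with values of 7.70, 6.52 and 6.67 against 8.94, 8.77 and 8.85. Xaf1, which binds an inhibitor of cell death, differed by -1.55. Tap1, which moves peptides to class I molecules, differed least of that group, by -0.52.

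The STHdhQ7 samples were not alike. Their median deviation over the 38 genes from the STHdhQ111 vehicle mean was -1.0 in replicate 1, -1.85 in replicate 2 and -1.72 in replicate 3, and replicate 1 was the highest of the 3 for each gene whose STHdhQ7 values are given above. Ifi27 spread least within STHdhQ7, at 7.30, 7.16 and 7.29. It was at 8.93, 9.06 and 9.09 in STHdhQ111 cells, with an SD of 0.08 (n = 3) in each line.

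Markers of cell identity also differed between the lines. Nes, a marker of neural progenitors, was at 10.95 ± 0.91 (SD, n = 3) in STHdhQ7 and 4.96 ± 0.24 in STHdhQ111 cells, and Sox2 was at 8.91 ± 0.47 and 4.81 ± 0.02. All 7 progenitor markers were found, 5 of them above the minimum, and their summed level, which Vim dominates, was 15.58 to 15.74 in STHdhQ7 and 15.38 to 15.51 in STHdhQ111 samples. Ptprc, the leukocyte surface protein CD45, was at 7.86 ± 0.49 in STHdhQ7 and 10.59 ± 0.15 in STHdhQ111 cells. Of 10 leukocyte and microglia markers 8 were found and 3 reached the minimum, while Cx3cr1 and Aif1 stayed at the floor of the table in all 48 samples (medians -1.81 and -2.18). The summed level of the list, which Ptprc carries, was 7.91 to 8.67 in STHdhQ7 and 10.54 to 10.81 in STHdhQ111 samples. The other 2 markers above the minimum, Cd68 (6.13 and 6.16) and Csf1r (1.96 and 1.93), were near level between the lines. Of the mesenchymal markers Col1a2 was at 10.33 ± 0.06 and 13.03 ± 0.05 and Pdgfra at 7.71 ± 0.08 and 9.04 ± 0.10, while Col1a1 (14.66 and 14.64), Dcn (7.25 and 7.32) and Pdgfrb (10.74 and 10.78) were near level between the lines. The part of these differences in the result was not tested. In bulk samples, fewer cells of a kind and less RNA per cell cannot be told apart.

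**Figure D2:**
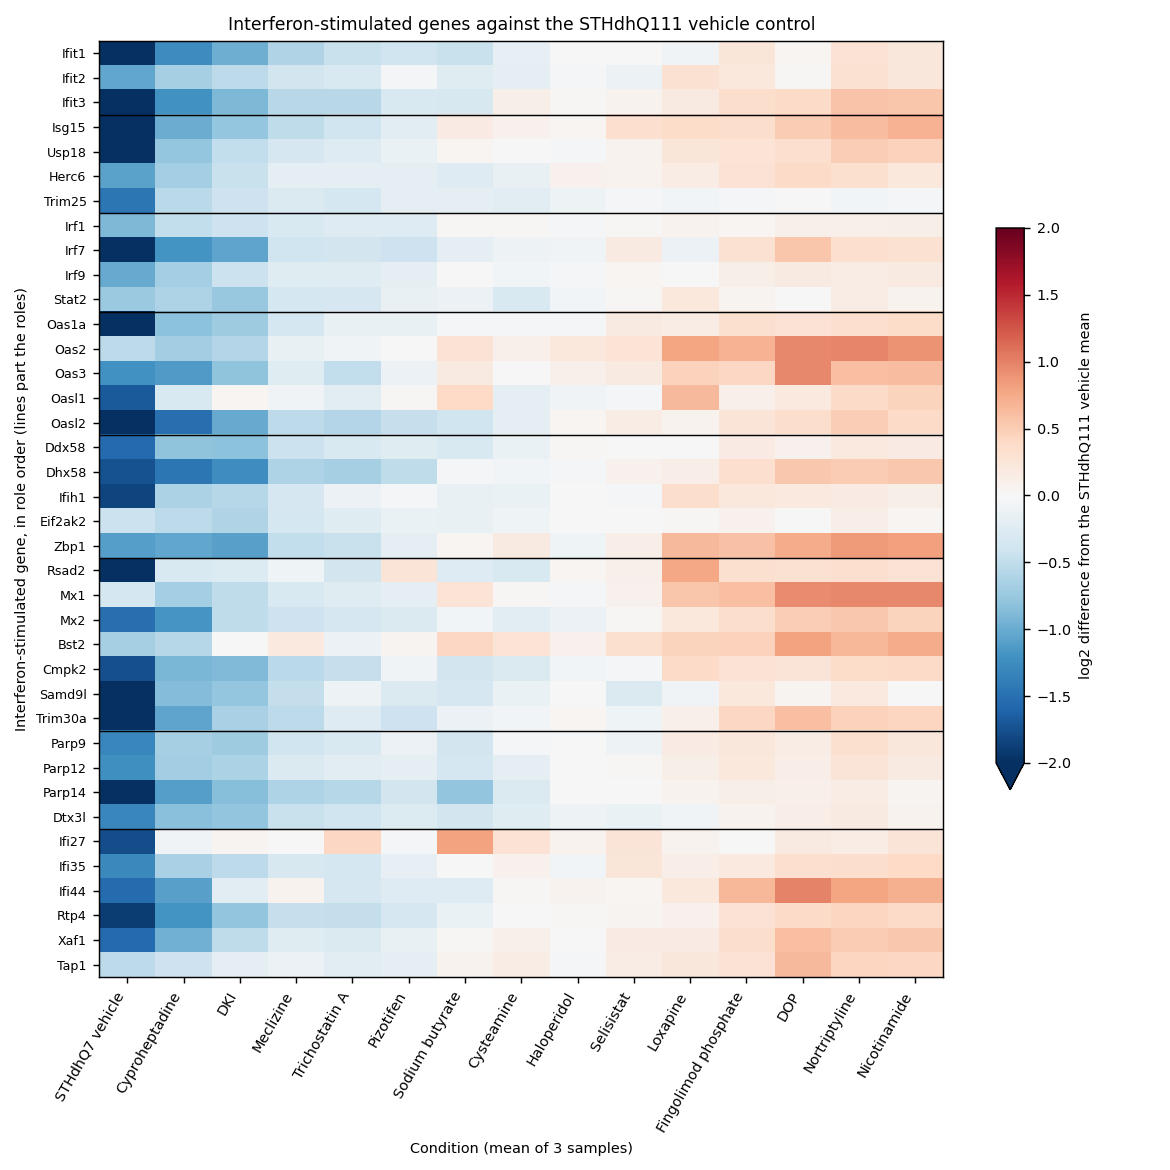
Difference of each of the 38 genes from the STHdhQ111 vehicle mean, for STHdhQ7 vehicle and the 14 compounds (means of 3 samples). Blue is lower and red higher on the log2 scale, with the colour held at 2 in each direction, and lines part the roles. STHdhQ7, cyproheptadine and DKI show the deepest blue, and nicotinamide, nortriptyline and DOP the most red.

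The next comparison asks where the compounds left the interferon-stimulated genes relative to untreated mutant cells. Cyproheptadine, an antihistamine and serotonin antagonist, had the lowest levels. All 38 genes were lower than in the STHdhQ111 vehicle control, with a median of -0.79, and 35 of the 38 did not overlap it, against 23.6% of all genes. Oasl2, at -1.51, and Dhx58, at -1.45, differed most, and Ifi27 differed by -0.07. DKI, an inhibitor of diacylglycerol kinase, had a median of -0.62 with 30 genes lower without overlap, against 26.7% of all genes, and Dhx58 differed by -1.25. Without replicate 1 of each compound the medians were -0.60 and -0.41.

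Ifit1 shows the spread. It was at 10.52, 11.31 and 11.30 with cyproheptadine and at 10.66, 11.71 and 11.61 with DKI, so that replicate 1 lay lowest in each, and all 6 values lay below the 3 of the STHdhQ111 vehicle control. Dhx58, which encodes an RNA helicase that tunes its relatives RIG-I and MDA5, was at 6.50, 7.11 and 7.29 with cyproheptadine and at 6.42, 7.52 and 7.57 with DKI, against 8.47, 8.22 and 8.55 in the STHdhQ111 vehicle control.

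Meclizine, another antihistamine, had a median of -0.35 with 26 genes lower without overlap, against 21% of all genes. Trichostatin A, an inhibitor of histone deacetylases, had a median of -0.31, with 21 genes lower, against 16%, and 1 higher, against 15%. Pizotifen had a median of -0.19 and 19 genes lower, against 18.7%. Sodium butyrate, also a histone deacetylase inhibitor, had a median of -0.13, with 12 genes lower, against 23%, and 3 higher, against 25.8%. Parp14 was the lowest of the class under butyrate, at -0.79, and Ifi27 the highest, at 0.80. Under trichostatin A Ifi27 was the only one of the 38 genes with a higher mean than in the vehicle control, by 0.41.

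Cysteamine left the median at -0.06, with 5 genes lower, against 15.5%, and 1 higher, against 13.9%. Selisistat, a sirtuin inhibitor, left it at 0.05, with 1 lower, against 8.27%, and 3 higher, against 6.78%. Haloperidol left it at 0.00, and none of the 38 genes was without overlap in either direction, against 8.92% of all genes.

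The other compounds had higher values. Loxapine had a median of 0.16 with 9 genes higher without overlap, against 20.9% of all genes, and fingolimod phosphate one of 0.28 with 5 higher, against 9.23%. DOP had a median of 0.32 with 19 higher, against 17.5%, nortriptyline one of 0.34 with 19 higher, against 12.6%, and nicotinamide one of 0.37 with 23 higher, against 15.7%. Mx1, Oas2, Zbp1 and Bst2 led under nicotinamide, at 0.97, 0.90, 0.81 and 0.75, while Trim25 and Samd9l stayed at -0.02 and 0.00. These 14 contrasts share the same 3 vehicle samples. By the labels, only selisistat shared the full set of collection slots of the vehicle control, and cyproheptadine and DKI shared a part of it. In the contrasts of the other compounds, compound and slot cannot be told apart. Single samples moved some medians by over 1.5 times. That of fingolimod phosphate was 0.13 without its replicate 3, and that of butyrate -0.05 without its replicate 2 and -0.08 without STHdhQ111 vehicle replicate 1. For DOP it was 0.49 and 0.20 without its replicate 1 and 2, and for loxapine 0.10 without its replicate 2 and 0.10 without STHdhQ111 vehicle replicate 2.

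**Figure D3:**
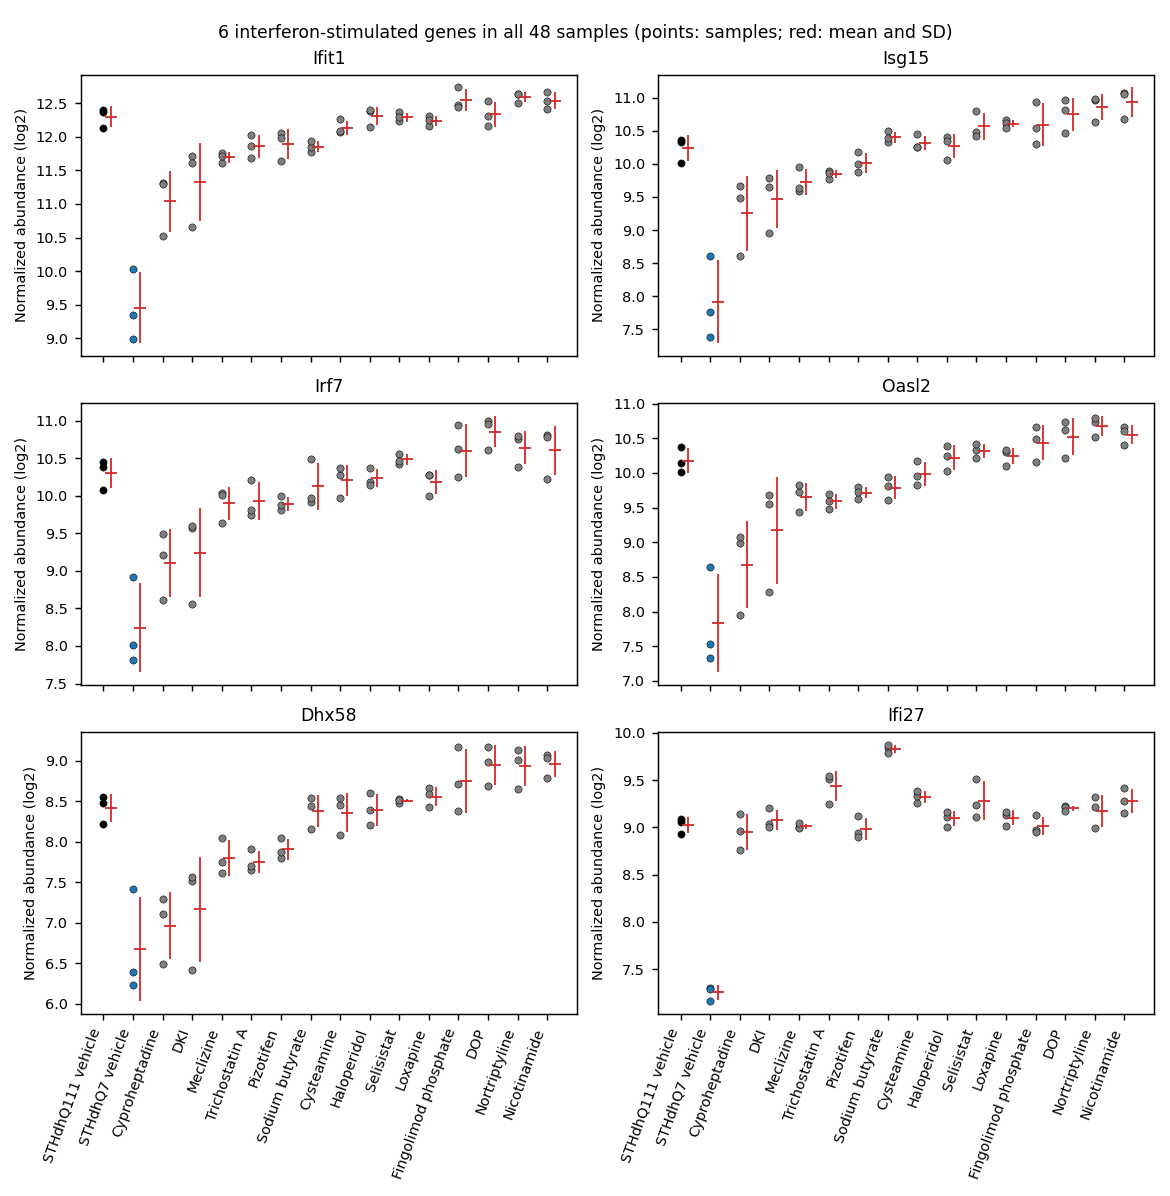
Values of Ifit1, Isg15, Irf7, Oasl2, Dhx58 and Ifi27 in all 48 samples (log2 normalized abundance), with the mean and SD of each condition in red. For 5 of the genes STHdhQ7 is lowest, followed by cyproheptadine and DKI, each with 1 sample well below the others. Ifi27 is low in STHdhQ7, not in these compounds, and is highest with sodium butyrate.

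Nicotinamide, nortriptyline, DOP, loxapine, butyrate and cysteamine share a set of collection slots. Haloperidol, meclizine, trichostatin A, pizotifen and fingolimod phosphate share another. Between nicotinamide and nortriptyline, both at 1 nM or less, the median difference over the 38 genes was -0.03, and limma called 0 of 38 genes (0 at an unadjusted p under 0.05) and 0% of all genes. Haloperidol at 0.5 nM, collected in the other slots, lay below their mean in all 38 genes, by a median of -0.39. Of the 38, 8 were called lower (adjusted p under 0.05), against 3.27% of all genes. They were Mx1, Zbp1, Oas2, Isg15, Bst2, Ifit3, Tap1 and Ifi35. Slot and compound cannot be told apart in this comparison.

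Mx1, a GTPase that blocks influenza virus, was at 4.25, 4.30 and 4.10 with haloperidol, at 4.66, 5.55 and 5.44 with nicotinamide and at 4.68, 4.81 and 6.12 with nortriptyline. The difference was -0.99 ± 0.29 (standard error, adjusted p = 0.027, limma), with no overlap. Zbp1 was at 6.16, 6.10 and 6.18 with haloperidol, at 6.78, 7.19 and 7.18 with nicotinamide and at 6.80, 7.08 and 7.36 with nortriptyline, a difference of -0.92 ± 0.25 (adjusted p = 0.017). Oas2 was at 5.03, 5.18 and 5.28 with haloperidol, at 5.44, 5.98 and 6.14 with nicotinamide and at 5.67, 5.83 and 6.28 with nortriptyline, a difference of -0.73 ± 0.23 (adjusted p = 0.042). The count of 8 depends on single samples. It was 4, 0 and 2 without haloperidol replicate 1, 2 and 3, 2 and 3 without nicotinamide replicate 2 and 3, and 4 and 3 without nortriptyline replicate 2 and 3.

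**Figure D4:**
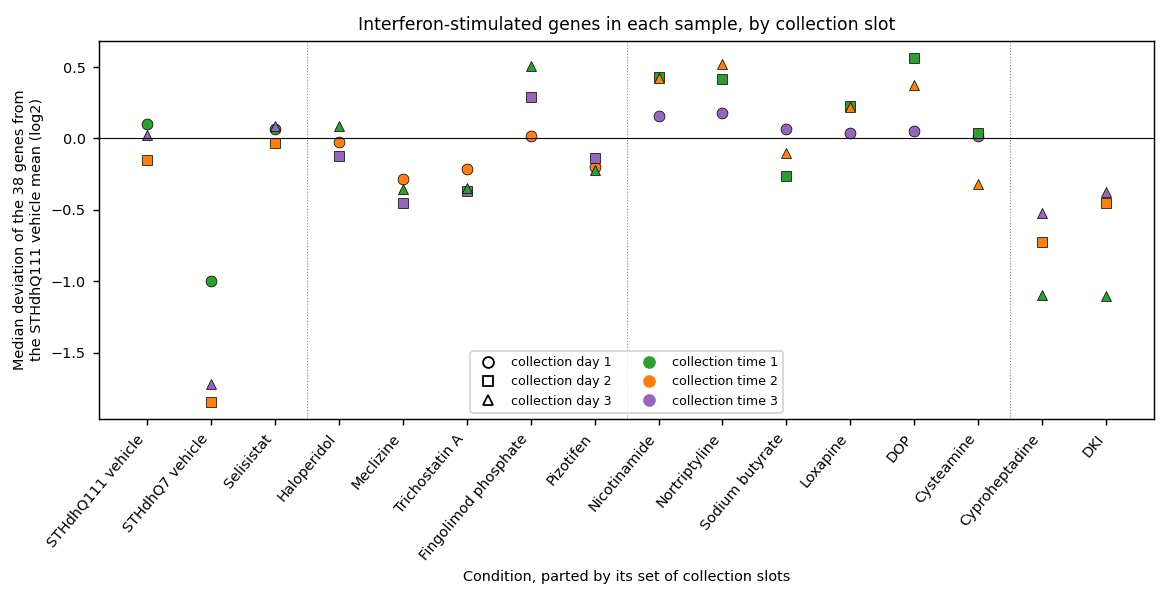
Median deviation of the 38 genes from the STHdhQ111 vehicle mean in each of the 48 samples (log2), with the collection day as the shape and the collection time as the colour. Dotted lines part conditions by their set of slots. Nicotinamide, nortriptyline and DOP lie above 0, and the lowest cyproheptadine and DKI samples, near -1.10, are those labelled day 3 and time 1.

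To compare compounds within shared slots and without the vehicle samples that chose the genes, each compound was set against the compounds given at 1 nM or less in the same slots. These tests use other contrasts than the rule, but the compound samples themselves also took part in the choice. Each comparison between compounds is a difference of contrasts that the rule used. Its counts and p-values are thus not independent of the choice, and no enrichment of the class is read from the shares. Sodium butyrate against the mean of nicotinamide and nortriptyline gave the most calls within shared slots. Of the 38 genes 22 fell (median over the 38, -0.50), against 13.8% of all genes called lower, and 1 rose, against 17% called higher. From the STHdhQ111 vehicle control the medians were 0.37 for nicotinamide, 0.34 for nortriptyline and -0.13 for butyrate. Falls from nicotinamide and nortriptyline, here and below, are thus falls from a reference that lay above the vehicle control. All 4 genes of the PARP group and all 3 IFIT genes fell, while none of the 4 transcription factors passed the test in this fit. Without butyrate replicate 2 the calls came to 11. Of the 24 cell type markers tested 10 were called higher and 0 lower (limma), and their part in the result was not tested.

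Ifi44, a cytoplasmic protein of the antiviral response, was at 7.85, 7.10 and 7.49 with butyrate, against 8.12, 8.53 and 8.70 with nicotinamide and 8.11, 8.58 and 8.91 with nortriptyline. It fell by 1.01 ± 0.24 (standard error, adjusted p = 0.0012, limma). Parp14 was at 8.77, 8.59 and 8.78 with butyrate, and its values with nicotinamide, 9.37, 9.64 and 9.67, and nortriptyline, 9.43, 9.76 and 9.74, were all above these. It fell by 0.89 ± 0.16 (adjusted p = 5.4e-05). Ifit3 was at 10.81, 10.55 and 10.66 with butyrate, 11.34, 11.63 and 11.63 with nicotinamide and 11.31, 11.68 and 11.69 with nortriptyline, a fall by 0.88 ± 0.16 (adjusted p = 4.5e-05). In each of the 3 genes the groups did not overlap.

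Ifi27, which encodes a small membrane protein, rose under butyrate. It was at 9.84, 9.79 and 9.87 with butyrate, at 9.28, 9.41 and 9.15 with nicotinamide and at 9.21, 9.32 and 8.99 with nortriptyline, a rise of 0.60 ± 0.08 (adjusted p = 2.4e-07). Under trichostatin A it was at 9.51, 9.25 and 9.55, against 9.11, 9.01 and 9.17 with haloperidol, a rise of 0.34 ± 0.09 (adjusted p = 0.012). Doses and slots of the 2 histone deacetylase inhibitors differ, so the values stand side by side only.

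Trichostatin A against haloperidol called 2 of the 38 genes lower, against 5.27% of all genes, and 1 higher, against 5.85%. Parp14 was at 8.93, 8.85 and 8.98 with trichostatin A and 9.48, 9.47 and 9.55 with haloperidol, a fall by 0.58 ± 0.19 (adjusted p = 0.039). Ifit3 was at 10.46, 10.42 and 10.42 against 11.04, 10.85 and 11.14, a fall by 0.57 ± 0.18 (adjusted p = 0.034). The groups did not overlap in either. The calls of both genes were lost in most fits that left out a single sample, for Ifit3 in 5 of 6 and for Parp14 in 6 of 6. That of Ifi27 was lost in 3 of 6, and without replicate 1 or 3 of trichostatin A none of the 38 was called.

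Meclizine against haloperidol called 10 genes lower and none higher, with a median of -0.33, against 12.8% of all genes called lower. They were Parp14, Ifit1, Ifit3, Trim30a, Samd9l, Ddx58, Parp9, Dtx3l, Eif2ak2 and Irf1. Parp14 was at 9.02, 8.74 and 8.89 with meclizine and fell by 0.62 ± 0.19 from the values of haloperidol given above (adjusted p = 0.012). Ifit1 was at 11.76, 11.60 and 11.71, against 12.38, 12.15 and 12.39 with haloperidol, a fall by 0.61 ± 0.20 (adjusted p = 0.018). Ifit3 was at 10.64, 10.26 and 10.41, a fall by 0.57 ± 0.18 (adjusted p = 0.018). The count moved with single samples. Without haloperidol replicate 3 there was 1 call, and without meclizine replicate 2 there were 4, without replicate 3 of it 5 and without replicate 1 of it 6.

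Cysteamine had a median of -0.06 from the STHdhQ111 vehicle control. Against nicotinamide and nortriptyline its median was -0.42, and 37 of the 38 genes were lower. In 25 of them the 3 cysteamine samples lay below all 6 others, against 3.2% of all genes. Limma called 0 of the 38 genes, against 0.119% of all genes, and 31 of the 38 had an unadjusted p under 0.05, all lower. The largest differences, those of Mx1 and Oas2, were -0.94 ± 0.29 (standard error, adjusted p = 0.25) and -0.84 ± 0.23 (adjusted p = 0.18).

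Pizotifen against haloperidol had a median of -0.16, and 20 of the 38 genes were lower without overlap, against 18.5% of all genes. None was called, against 14.7% of all genes, and 5 had an unadjusted p under 0.05, all lower. Loxapine against nicotinamide and nortriptyline had a median of -0.18, with 0 of 38 called by limma, against 22.8% of all genes, and 5 at an unadjusted p under 0.05. DOP in the same comparison had a median of -0.02, with 0 called, against 10.6%, and 1 at an unadjusted p under 0.05. Fingolimod phosphate against haloperidol had a median of 0.26 and was higher in 37 of 38 genes. Limma called 0 of 38, against 0% of all genes, and 4 had an unadjusted p under 0.05. Pizotifen against meclizine, collected in the same slots at 5 µM and 10 µM, had a median of 0.14, with 0 called, against 16.2%, and 2 at an unadjusted p under 0.05.

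The number of genes called moved with the samples that gave the spread. The spread of each gene was estimated over all 16 conditions, and over the 38 genes the samples of STHdhQ7, cyproheptadine and DKI spread most, with an SD of the sample medians of 0.455, 0.293 and 0.399 (n = 3 each). With these 3 conditions out of the fit, a choice made after the data were seen, 21 genes were called lower for meclizine, against 14.1% of all genes, 15 for trichostatin A, against 6.79%, and 8 for pizotifen, against 8.58%. For haloperidol against nicotinamide and nortriptyline it was 21 genes, against 4.25%, for loxapine 9, against 12.1%, and for cysteamine 15, against 0.283%. For butyrate it was 31 genes, against 14.9%, and the transcription factors Irf7, Irf9 and Stat2 were then among them. For cysteamine the 15 genes were thus among 38 genes called lower in all. They were Ifit1, Ifit2, Isg15, Stat2, Oas2, Oasl1, Oasl2, Dhx58, Rsad2, Cmpk2, Mx2, Parp9, Parp12, Dtx3l and Rtp4.

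**Figure D5:**
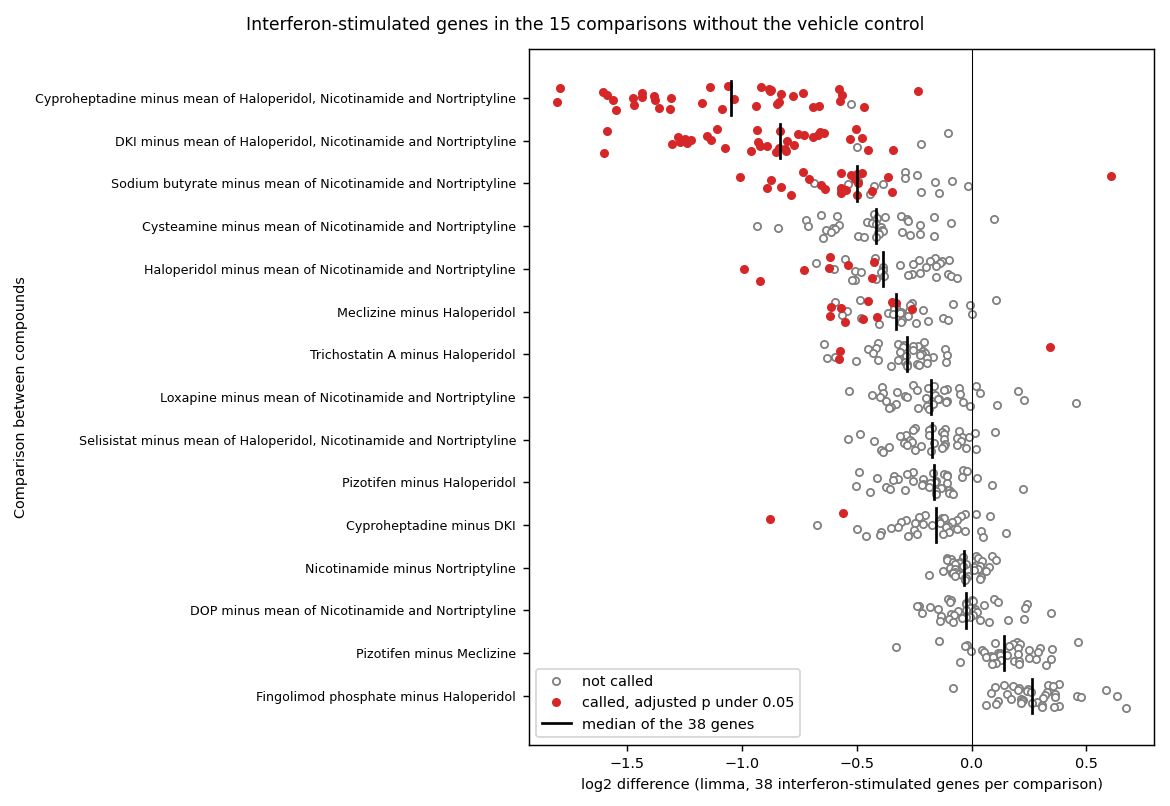
The log2 difference of each of the 38 genes in the 15 comparisons between compounds, ordered by their median (black bar). Filled points were called by limma at an adjusted p under 0.05. Nearly all points lie left of 0 for cyproheptadine, DKI, butyrate, cysteamine and haloperidol, and right of it for fingolimod phosphate.

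No compound given at 1 nM or less shared the full set of slots of cyproheptadine and DKI. By the labels, haloperidol replicate 3 shared day 3 and time 1 with replicate 1 of both. In that slot the median deviation of the 38 genes from the STHdhQ111 vehicle mean was -1.10 with cyproheptadine, -1.10 with DKI and 0.09 with haloperidol. Replicate 1 of every other condition is labelled day 1. Whether the day 3 label of cyproheptadine and DKI replicate 1 holds a slip is unknown, and the shared slot rests on it. Against the mean of haloperidol, nicotinamide and nortriptyline, cyproheptadine called 37 of the 38 genes lower (median -1.05), against 21.4% of all genes, and DKI 35 (median -0.84), against 25.5%. The samples of these compounds took part in the choice of the genes, so nothing is read from the shares. The other slots differ between the groups compared, so compound and slot cannot be told apart in the comparison as a whole. Without replicate 1 of both compounds the counts were 35 and 31, and the medians -0.84 and -0.58. Rsad2 was the gene not called for cyproheptadine (-0.53 ± 0.26, standard error, adjusted p = 0.095), and for DKI it was Rsad2, Oasl1 and Ifi27. Of the 24 cell type markers tested 9 were called lower and 3 higher with cyproheptadine, and 11 lower and 2 higher with DKI. The summed level of the mesenchymal markers was 14.56 to 14.73 with cyproheptadine and 14.23 to 14.47 with DKI, against 15.06 to 15.32 over the nicotinamide, nortriptyline and haloperidol samples. Their part in the result was not tested.

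Oasl2 was at 7.95, 8.99 and 9.08 with cyproheptadine and at 8.29, 9.55 and 9.69 with DKI, and it was at 10.25, 10.03 and 10.38 with haloperidol, 10.40, 10.66 and 10.61 with nicotinamide and 10.52, 10.73 and 10.79 with nortriptyline. It fell by 1.81 ± 0.22 with cyproheptadine (standard error, adjusted p = 1.1e-08) and by 1.30 ± 0.22 with DKI (adjusted p = 3.4e-06). Dhx58, whose values for both compounds are given above, was at 8.39, 8.20 and 8.60 with haloperidol, 8.78, 9.06 and 9.04 with nicotinamide and 8.66, 9.01 and 9.13 with nortriptyline. It fell by 1.79 ± 0.20 with cyproheptadine (adjusted p = 2e-09) and by 1.59 ± 0.20 with DKI (adjusted p = 1.4e-08). Neither gene overlapped the other compounds.

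Ifi44 was at 6.14, 6.76 and 7.07 with cyproheptadine and fell by 1.61 ± 0.23 (adjusted p = 3.6e-07), with 7.70, 7.67 and 8.07 under haloperidol and the values of nicotinamide and nortriptyline given above. Zbp1 was at 4.47, 5.49 and 5.49 with DKI and fell by 1.60 ± 0.24 from the values of the other compounds given above (adjusted p = 4.3e-07). In neither gene did these values overlap those of the other compounds.

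Selisistat, which shared the slots of the vehicle controls, had a median of -0.17 against the same 3 compounds. Limma called 0 of the 38 genes, against 4.97% of all genes, and 6 had an unadjusted p under 0.05, all lower.

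Cyproheptadine and DKI, given at 10 µM in the same slots, were compared directly. The median over the 38 genes was -0.16, and 2 genes were called lower with cyproheptadine, against 14.7% of all genes. Ifi44 was at 6.14, 6.76 and 7.07 with cyproheptadine and 7.0, 7.68 and 7.93 with DKI, a difference of -0.88 ± 0.28 (standard error, adjusted p = 0.014, limma). Bst2, which tethers budding virus to the cell surface, was at 8.30, 8.88 and 9.13 with cyproheptadine and 8.90, 9.42 and 9.67 with DKI, a difference of -0.56 ± 0.21 (adjusted p = 0.047). The groups overlapped in each gene, and within each slot cyproheptadine was the lower. The count depends on replicate 1. With it left out of cyproheptadine 0 genes were called and with it left out of DKI 14, and with it left out of both there were 2, among which Ifi44 kept its call (adjusted p = 0.039) and Bst2 did not (adjusted p = 0.11).

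Cyproheptadine and pizotifen are close relatives in structure, as tricyclic antihistamines with a methylpiperidine ring, and pizotifen has a thiophene ring in place of a benzene ring and a saturated bridge. They were given at 10 µM and 5 µM and by the labels shared only the slot of day 3 and time 1. Their values are thus set side by side only. Ifit1 was at 10.52, 11.31 and 11.30 with cyproheptadine and at 11.64, 12.06 and 11.98 with pizotifen. Oasl2 was at 7.95, 8.99 and 9.08 with cyproheptadine and at 9.63, 9.79 and 9.73 with pizotifen.

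The genes around the response were read from a list of 50, of which 44 were found and 38 tested. The interferon genes in the table, Ifnb1, Ifna4, Ifne, Ifnl2 and Ifnl3, lay at its floor in all 48 samples, with medians of -1.70, -1.70, -1.59, -1.64 and -2.23 and little change in any sample. Ifnb1 was at -1.70 ± 0.01 in STHdhQ7 and -1.69 ± 0.01 (SD, n = 3 each) in STHdhQ111 cells. In this table genes with low values hardly vary, so a difference in these transcripts could not have been detected.

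The receptor subunits of type I interferon were present and near the same level in all samples. Ifnar1 ran from 9.55 to 9.84 and Ifnar2 from 8.25 to 8.65 over the 48 samples. Between the lines, 22 of the 38 tested genes of this list were lower in STHdhQ7 without overlap, against 28.3% of all genes, and 6 higher, against 29.9%, with a median of -0.24. Mb21d1 (cGAS), the sensor of cytosolic DNA, was at 6.25 ± 0.19 in STHdhQ7 and 7.96 ± 0.11 in STHdhQ111 cells, and the kinase Ikbke at 6.26 ± 0.04 and 7.14 ± 0.07. Tmem173 (STING) and Mavs, the adaptors of DNA and RNA sensing, differed by -0.06 and -0.23, and Socs1, a feedback inhibitor of Janus kinases, by -0.01.

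Against the mean of haloperidol, nicotinamide and nortriptyline, 15 of these 38 genes fell and 5 rose with cyproheptadine, against 21.4% of all genes lower and 22% higher. With DKI 19 fell and 9 rose, against 25.5% lower and 24.7% higher. The deoxynucleotide hydrolase Samhd1 fell by 0.43 ± 0.05 with cyproheptadine (standard error, adjusted p = 3.3e-09) and by 0.59 ± 0.05 with DKI (adjusted p = 6.1e-13). Trex1, an exonuclease that clears cytosolic DNA, fell by 0.56 ± 0.11 and 0.65 ± 0.11, and Tlr3, a receptor of double-stranded RNA, by 0.57 ± 0.10 and 0.43 ± 0.10. The receptor subunit Ifngr1 rose by 0.31 ± 0.05 with cyproheptadine. Samhd1 also fell within shared slots, by 0.47 ± 0.06 with meclizine (adjusted p = 8.8e-08), by 0.35 ± 0.06 with trichostatin A (adjusted p = 8.6e-05) and by 0.39 ± 0.05 with butyrate (adjusted p = 2e-07).

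The 66 other interferon-induced genes, of which 63 were found and 62 tested, are given for comparison. In STHdhQ7 against STHdhQ111 cells 59 of 62 were lower, with a median of -0.93, and 51 were lower without overlap, against 28.3% of all genes. Ifit3b, Lgals9 and Gbp2 differed most, at -2.39, -2.26 and -2.25, and the highest were Pnpt1, Slfn5 and Ifi30, at 0.28, 0.15 and 0.01. Cyproheptadine against the 3 compounds called 55 of 62 lower, against 21.4% of all genes, and none higher, with Iigp1, an interferon-inducible GTPase, at -2.09 ± 0.25 (standard error, adjusted p = 1.5e-08). DKI called 53 lower, against 25.5%, and 1 higher, against 24.7%. Butyrate against nicotinamide and nortriptyline called 34 lower, against 13.8%, and 3 higher, against 17%, led by the immunoproteasome subunit Psmb10 at -1.14 ± 0.13 (adjusted p = 1.1e-08). Meclizine against haloperidol called 12 lower, against 12.8%, and trichostatin A 3, against 5.27%, and none was called higher.

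Within conditions, after the condition means and the collection day were removed, the 38 genes varied together. The median correlation over their 703 pairs was 0.823 across the 48 samples, against 0.001 over all pairs of genes, and 36 of the 38 correlated above 0.5 with the mean of the others. Without STHdhQ7, cyproheptadine and DKI, over 39 samples, the median was 0.697 and 35 genes were above 0.5. The points share their library and its collection slot. Dhx58 followed the others most closely, at 0.978, and Ifi27 least, at 0.129, and at -0.240 in the 39 samples. Of the 62 other interferon-induced genes, 45 correlated above 0.5 with the mean of the 38.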

How the data were processed

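The authors prepared poly(A) libraries, used Trimmomatic 0.36 on the single-end reads, quantified transcripts of GRCm38.p5 with RSEM and deposited 1 normalized log2 abundance per gene and sample. The submitters' processing notes also name DESeq2. The transformation is not given in the sources used here. The deposited log2 values ran from -2.34 to 18.62 and were used unchanged.

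Genes with a symbol and a mean of at least 1 were tested, 13409 of 18178. With limma 3.58.1 in R 4.3.3, each gene was modelled over all 48 samples by its condition (16 levels) and day of collection (30 residual degrees of freedom, variance trend). P-values were two-sided, adjusted by the Benjamini-Hochberg method over all genes tested within each of the 15 comparisons, and called under 0.05. The procedure was tested on simulated data. The members, the gene lists and the comparisons were chosen with earlier results of these data known.

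Named were the members, genes of the pathway list above the minimum, and, of the other interferon-induced genes, the 3 with the largest rise and fall between the lines and in each tested comparison the called gene with the largest rise and that with the largest fall. The interferon genes, below the minimum, were named in addition after their values were seen. Values in every sample are given for the member with the largest difference between the lines in each role and for the 3 called members with the largest change per comparison. Gene positions come from GENCODE M21 (GRCm38), and promoters from RefSeq. Replicate numbers mark the collection day in the labels, except in replicate 1 of cyproheptadine and DKI. Deviations from the mean of each condition correlated above 0.1 between same-numbered samples in 9 of the 120 condition pairs, and the day they share by their labels was already a term of the model. Alternatives were other filters, other covariates, fewer conditions in the fit, centring each sample on its median and leaving out single samples. Figures were drawn with matplotlib 3.10.9.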

Additional observations from a re-analysis of the deposited data

How the results depend on the processing

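Of 440 values of the comparisons under other settings 388 kept their size and 52 moved. A median counted as kept if it moved by less than the SD of its sample medians, whatever its sign. A count of calls was kept if it changed by at most 1.5 times. Of 199 values of named genes 178 kept their call, 21 lost it and 0 reversed. Of the fits without single samples, only those with the lowest and highest difference per gene entered the 199. Over all such fits, Oas2 and Mx1 lost their calls for haloperidol in 7 of 9 and 6 of 9. Parp14 lost its call for butyrate in 0 of 9. Fitting the compared conditions alone gave 30 calls (30.5% of all genes) for meclizine, 12 (15.1%) for pizotifen and 24 (12.6%) for trichostatin A against haloperidol. It gave 27 (32.7%) for loxapine, 8 (12.4%) for DOP, 29 (1.51%) for cysteamine and 31 (16.1%) for haloperidol against nicotinamide and nortriptyline, 9 (12.7%) for pizotifen against meclizine and 6 (2.13%) for selisistat. Fitting the 13 conditions other than STHdhQ7, cyproheptadine and DKI, chosen after the data were seen, gave 21, 8 and 16, then 11 for loxapine, 15 for cysteamine, 21 for haloperidol, 4 for pizotifen against meclizine and 3 for selisistat. The 4 were higher, against 1220 of 13409 genes, and the 3 lower, against 543. Trichostatin A had 1 of its calls higher, against 900 genes, and loxapine 2, against 1761. With no minimum, calls came to 1 for trichostatin A, 1 for cyproheptadine against DKI and 3 for haloperidol. Cyproheptadine against DKI also gave 1 with the collection time as a further term, and selisistat gave 1 with a minimum mean of 5 and 1 without the collection day. For these filters and terms, and for the fits without single samples, no share over all genes is given. Their counts show only how the calls moved. The causes were not tested.

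With single samples left out, calls ranged from 1 to 9 for meclizine, 0 to 1 for trichostatin A, 11 to 27 for butyrate, 0 to 2 for loxapine (2 without nortriptyline replicate 1), 0 to 14 for cyproheptadine against DKI, 0 to 1 for selisistat (1 without nortriptyline replicate 1 or selisistat replicate 3) and 0 to 10 for haloperidol. The median of pizotifen against the STHdhQ111 vehicle ranged from -0.2526 to -0.1268. The medians nearest 0 changed sign, ranging from -0.06 to 0.05 for haloperidol, -0.01 to 0.11 for selisistat and -0.16 to 0.02 for cysteamine. With the replicate block in place of the collection day, meclizine kept 10 calls, butyrate 23 and cyproheptadine 37, and the block changed no other call. The depth is unknown and 3 samples a condition limit the precision.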
